A study of Rattus norvegicus with 12 samples.

Results

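Basement membrane genes were followed through 12 libraries of bulk RNA sequencing from rat nucleus pulposus cells, which fill the soft centre of the disc between vertebrae. A basement membrane is a thin sheet of matrix that lies against cells. It is built from a laminin network bound to receptors on the cell and a collagen IV network, with nidogens, agrin and other heparan sulphate proteoglycans joining them. In the disc its components lie around the cells themselves, where laminin chains serve nucleus pulposus cells as an attachment site. A list of 35 symbols of known basement membrane components was matched by gene name, and 33 of them had a row, each a single one, among the 21071 genes of the table. Hspg2 and Lama3 were not analysed here. Of the 33, 31 had enough counts to be tested, and Lamc3 and Efemp1 did not.

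The libraries fell into 4 groups of 3. The cells received erastin with exosomes of nucleus pulposus progenitor cells that overexpress miR-221-3p (erastin + miR-Exo), erastin with exosomes of plain progenitor cells (erastin + NPPC-Exo), the first kind of exosome alone (miR-Exo), or the second kind alone (NPPC-Exo). Exosomes are small vesicles shed by cells, and the protocol gives 50 µg/mL for NPPC-Exo. Erastin blocks the import of cystine and so sets off ferroptosis, in which iron-driven oxidation of membrane lipids kills the cell. The protocol gives a range of 0.1 to 5 µM erastin, applied for 48 h, but not which dose each library had. Every group received exosomes, so cells without them were not analysed here. No strain or donor animal is named and it is not stated that libraries of 1 group are separate cultures, so p-values measure the spread between these libraries, which may be technical. Whether the exosome kinds differ in more than the overexpressed microRNA miR-221-3p was not tested. Its mature sequence in RefSeq (GRCr8) is shown here with its seed, bases 2 to 8, in capitals.
rno-miR-221-3p: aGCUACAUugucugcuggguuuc

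Library totals ran from 54616827 to 68865720 counts. The Mir221 hairpin gene had 24.22 ± 0.30 CPM, counts scaled to a common library total, with erastin + miR-Exo and 0.352 ± 0.0515 CPM with erastin + NPPC-Exo (SD, n = 3 each). It had 27.7 ± 1.36 CPM with miR-Exo and 0.310 ± 0.00882 CPM with NPPC-Exo. The nucleus pulposus genes Acan, Col2a1, Sox9 and Pax1 were read in all 4 groups, and the level summed over the 8 listed markers of this cell type that had a row was 154 to 169 FPKM with erastin + miR-Exo, 199 to 217 FPKM with erastin + NPPC-Exo, 1020 to 1200 FPKM with miR-Exo and 944 to 1100 FPKM with NPPC-Exo, mostly from Acan and Col2a1. The 4 named genes fell with erastin under both kinds of exosome, while Cd24 and Foxf1 of the same list rose under NPPC-Exo, by 0.85 ± 0.10 and 1.20 ± 0.27 on the log2 scale. Under miR-Exo Cd24 rose by 0.74 ± 0.10. Of the 12 markers listed for this cell type, Krt19, Tbxt, Car12 and Car3 had no row. Krt18 and Krt8 averaged at most 0.09 and 2.31 FPKM in any group. FPKM are deposited values scaled by gene length and library size, on which genes can be set side by side. In bulk RNA, fewer cells of a type and less RNA per cell cannot be told apart.

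Sparc, Ccdc80 and the common collagen IV pair were the most abundant of these transcripts. In cells given NPPC-Exo alone, the level of Sparc, a matrix protein that binds collagen, was 5291 ± 338 FPKM (SD, n = 3). Ccdc80, a secreted matrix protein, stood at 1165 ± 56.5 FPKM, Col4a1 at 398 ± 16.7 FPKM and Col4a2 at 287 ± 16.2 FPKM. Next came Nid2 at 187 ± 15.5, Lamc1 at 142 ± 3.69, Nid1 at 131 ± 1.24 and Col18a1 at 128 ± 7.96 FPKM. Nid1 and Col18a1 differed by less than the SD of Col18a1. At the other end, Lama1, Frem2, Lamc3 and Efemp1 had at most 60 counts each over all 12 libraries. Together the 33 genes took 1.58% to 1.64% of all counts with erastin + miR-Exo, 1.64% to 1.68% with erastin + NPPC-Exo, 2.78% to 2.83% with miR-Exo and 2.68% to 2.83% with NPPC-Exo, so the erastin libraries lay below the others in every case.

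With erastin, most of the list was lower. This list, like the others used below, was chosen with earlier results of these data known. Its counts beside the shares of all genes are therefore descriptive only. Under NPPC-Exo, where 43.6% of all genes changed, 21 of the 31 tested genes fell and 5 rose with erastin (edgeR quasi-likelihood test, Benjamini-Hochberg adjusted p under 0.05), where 22.1% of all 15650 tested genes fell and 21.5% rose. Under miR-Exo 22 fell and 5 rose, where 49.1% of all genes changed, 24.4% lower and 24.7% higher. At least 2-fold falls numbered 14 under NPPC-Exo and 16 under miR-Exo, against 6.03% and 8.7% of all genes, and 3 genes rose at least 2-fold under each, against 6.78% and 7.21%. The median log2 fold change of the list was -0.731 under NPPC-Exo and -1.05 under miR-Exo, beside 0.0175 and 0.0287 over all tested genes. With library totals alone as the scaling, the median of all genes moved to 0.3 and 0.334, and the list stood at -0.447 and -0.749, with 19 lower and 8 higher genes under NPPC-Exo and 18 lower and 8 higher under miR-Exo. That scaling also turned the calls over all genes to 6405 higher and 1832 lower under NPPC-Exo, in place of 3362 and 3454, and to 6963 higher and 2156 lower under miR-Exo, in place of 3873 and 3814.

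**Figure D1:**
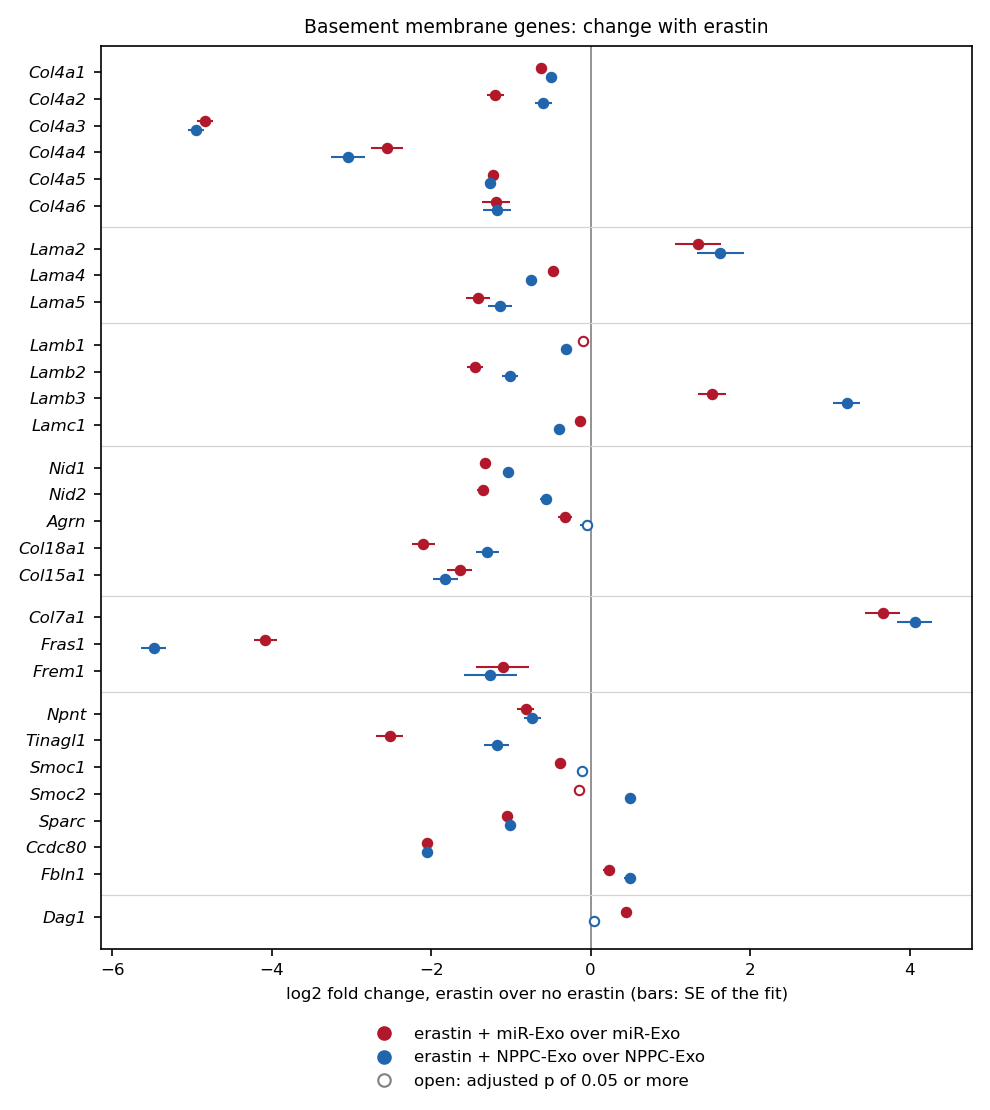
Log2 fold change with erastin (x axis) of the 29 basement membrane genes with more than 60 counts, under miR-Exo (red) and NPPC-Exo (blue), with bars for the SE of the fit and open points for an adjusted p of 0.05 or more. Fras1, Col4a3 and Col4a4 lie far to the left, and Col7a1, Lamb3 and Lama2 to the right.

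Transcripts of other cell types moved in the same comparisons, and their part in the result was not tested. Beside them, 22.1% of all genes fell and 21.5% rose under NPPC-Exo, and 24.4% fell and 24.7% rose under miR-Exo. Of the 8 pericyte and smooth muscle markers 6 fell in each erastin comparison, with a summed level of 1750 to 1830 FPKM with erastin + miR-Exo, 2850 to 3300 FPKM with erastin + NPPC-Exo, 6700 to 6810 FPKM with miR-Exo and 7210 to 8190 FPKM with NPPC-Exo, most of it from Acta2. Of the 9 endothelial markers, 6 had a row and 4 were tested, and 2 fell and 1 rose in each erastin comparison. Their sum was 2.3 to 3.04 FPKM with erastin + miR-Exo, 2.82 to 3.48 FPKM with erastin + NPPC-Exo, 55.8 to 59.4 FPKM with miR-Exo and 48.8 to 56.8 FPKM with NPPC-Exo, and Esam averaged 0.987, 1.35, 55.2 and 48.4 FPKM of it in the same order. Flt1 averaged 0.847, 1.17, 2.58 and 3.15 FPKM in that order, and Tek, the gene that rose, 0.647, 0.593, 0.267 and 0.197 FPKM. Kdr and Tie1 were at or near 0 in all groups, while Pecam1, Cdh5 and Emcn had no row. Epithelial and keratinocyte markers summed to at most 0.47 FPKM in any library, with Krt5 at or near 0 in all groups. Macrophage markers summed to 14.9 to 19.2 FPKM with erastin + miR-Exo, 7.65 to 10.5 FPKM with erastin + NPPC-Exo, 4.73 to 5.57 FPKM with miR-Exo and 3.51 to 4.52 FPKM with NPPC-Exo, mostly from Cd14, and the defining gene Adgre1 was at or near 0. Schwann cell markers summed to 104 to 111, 126 to 137, 89.8 to 93.7 and 79.4 to 89.6 FPKM with erastin + miR-Exo, erastin + NPPC-Exo, miR-Exo and NPPC-Exo in that order, mostly from Ncam1. Skeletal muscle markers summed to 1.23 to 2.54, 4.42 to 7.85, 31.8 to 34 and 48.8 to 51.1 FPKM in the same order, mostly from Acta1, with Myog and Myod1 at 0.2 FPKM or less on average. Mitochondrial transcripts took 4.51% to 4.99%, 3.96%, 3.52% to 3.81% and 3.54% to 3.61% of counts in the same order.

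All 6 collagen IV chains fell with erastin under both kinds of exosome. Of all genes 22.1% fell under NPPC-Exo and 24.4% under miR-Exo. Collagen IV chains assemble in threes into the network that gives the sheet its strength. The chains of Col4a1 and Col4a2 make the network of nearly all basement membranes, those of Col4a3, Col4a4 and Col4a5 the network of the kidney filter and a few other sites, and Col4a6 chains join with Col4a5 chains in smooth muscle and skin. Col4a3 had the steepest fall of the 6. It had 2.96, 2.71 and 2.35 CPM with erastin + NPPC-Exo, against 80.5, 87.7 and 79.9 CPM with NPPC-Exo. With erastin + miR-Exo it had 1.73, 1.67 and 2.02 CPM, against 52.4, 52.5 and 49.7 CPM with miR-Exo. The erastin libraries lay far below the others without overlap, with log2 fold changes of -4.95 ± 0.10 under NPPC-Exo (SE, adjusted p 1.6e-12) and -4.83 ± 0.10 under miR-Exo (adjusted p 1.03e-12).

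Col4a4 is the neighbour of Col4a3, transcribed away from it. It had 1.80, 1.74 and 2.23 CPM with erastin + NPPC-Exo, against 16.1, 19.7 and 11.6 CPM with NPPC-Exo. With erastin + miR-Exo it had 3.29, 3.09 and 4.69 CPM, against 23.2, 19.6 and 22.4 CPM with miR-Exo. Again no library overlapped, and the log2 fold changes were -3.04 ± 0.21 (adjusted p 7.79e-08) and -2.56 ± 0.20 (adjusted p 2.46e-07). Col4a5 had 146, 138 and 144 CPM with erastin + NPPC-Exo, against 317, 358 and 353 CPM with NPPC-Exo, and 142, 139 and 138 CPM with erastin + miR-Exo, against 322, 323 and 337 CPM with miR-Exo. Its log2 fold changes of -1.27 ± 0.05 and -1.23 ± 0.05 came without overlap of the libraries, and those of the rarer Col4a6 were -1.17 ± 0.18 and -1.19 ± 0.18.

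The abundant pair fell less. Col4a1 changed by -0.50 ± 0.05 under NPPC-Exo and -0.63 ± 0.05 under miR-Exo, and the erastin libraries did not overlap with the others. Col4a2 had 1034, 1153 and 1160.4 CPM with erastin + NPPC-Exo, against 1754, 1728 and 1573 CPM with NPPC-Exo, a change of -0.59 ± 0.11 (adjusted p 0.000464). It had 871, 705 and 1017 CPM with erastin + miR-Exo, against 2171, 1880.4 and 1886 CPM with miR-Exo, a change of -1.20 ± 0.11 (adjusted p 8.27e-07). The fall of Col4a2 under miR-Exo was the steeper one (difference of the 2 changes -0.60 ± 0.15, adjusted p 0.0214).

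The 3 collagen IV gene pairs lie head to head, so a pair shares the DNA between its start sites. In RefSeq (GRCr8) 76 bases separate the starts of Col4a1 and Col4a2, 412 those of Col4a3 and Col4a4, and 1414 those of Col4a5 and Col4a6. The 76 bases between the first pair and the 250 bases before the start of Col4a3, inside the gap of its own pair, are printed to show the DNA that each pair has in common. A match to GGGCGG on either strand, the GC box, is in capitals. Also searched on both strands, without a match in these stretches, were the TATA box (TATAAA), the CCAAT box (CCAAT) and the AP-1 motif (TGANTCA).
Col4a1, chr16:84885521-84885596, plus strand: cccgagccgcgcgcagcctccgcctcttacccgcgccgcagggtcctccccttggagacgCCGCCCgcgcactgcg
Col4a3, chr9:91323740-91323989, plus strand: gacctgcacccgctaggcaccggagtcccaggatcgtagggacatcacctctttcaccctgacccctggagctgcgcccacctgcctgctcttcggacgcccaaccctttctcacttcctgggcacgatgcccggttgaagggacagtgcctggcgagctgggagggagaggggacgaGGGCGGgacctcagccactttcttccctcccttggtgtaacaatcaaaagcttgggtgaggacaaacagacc
GGGCGG was found in 30.5% of all 33469 promoter stretches of 250 bases and in 18.1% of the 76 bases before a start. These matches describe the letters and show no binding.

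Within pairs the levels did not keep one ratio. The level of Col4a4 per level of Col4a3, both in FPKM, was 1.14, 1.15 and 1.39 with erastin + miR-Exo and 0.378, 0.381 and 0.583 with erastin + NPPC-Exo. It was 0.269, 0.226 and 0.275 with miR-Exo and 0.122, 0.136 and 0.0881 with NPPC-Exo. The ratio thus ran upward through the groups in the order NPPC-Exo, miR-Exo, erastin + NPPC-Exo and erastin + miR-Exo, with no overlap. For Col4a2 per Col4a1 it was 0.519, 0.452 and 0.622 with erastin + miR-Exo and 0.642, 0.695 and 0.687 with erastin + NPPC-Exo, against 0.824, 0.795 and 0.745 with miR-Exo and 0.785, 0.73 and 0.653 with NPPC-Exo. With erastin + miR-Exo it lay below all libraries of the other groups. Of the FPKM summed over the 6 chains, Col4a3 made up 0.051% ± 0.00336 with erastin + miR-Exo, 0.0692% ± 0.0103 with erastin + NPPC-Exo, 0.799% ± 0.0499 with miR-Exo and 1.41% ± 0.0473 with NPPC-Exo (SD, n = 3 each). Col4a1 made up 62.7% ± 3.27, 57.4% ± 0.814, 52.4% ± 1.06 and 53.6% ± 1.99 in the same order.

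**Figure D2:**
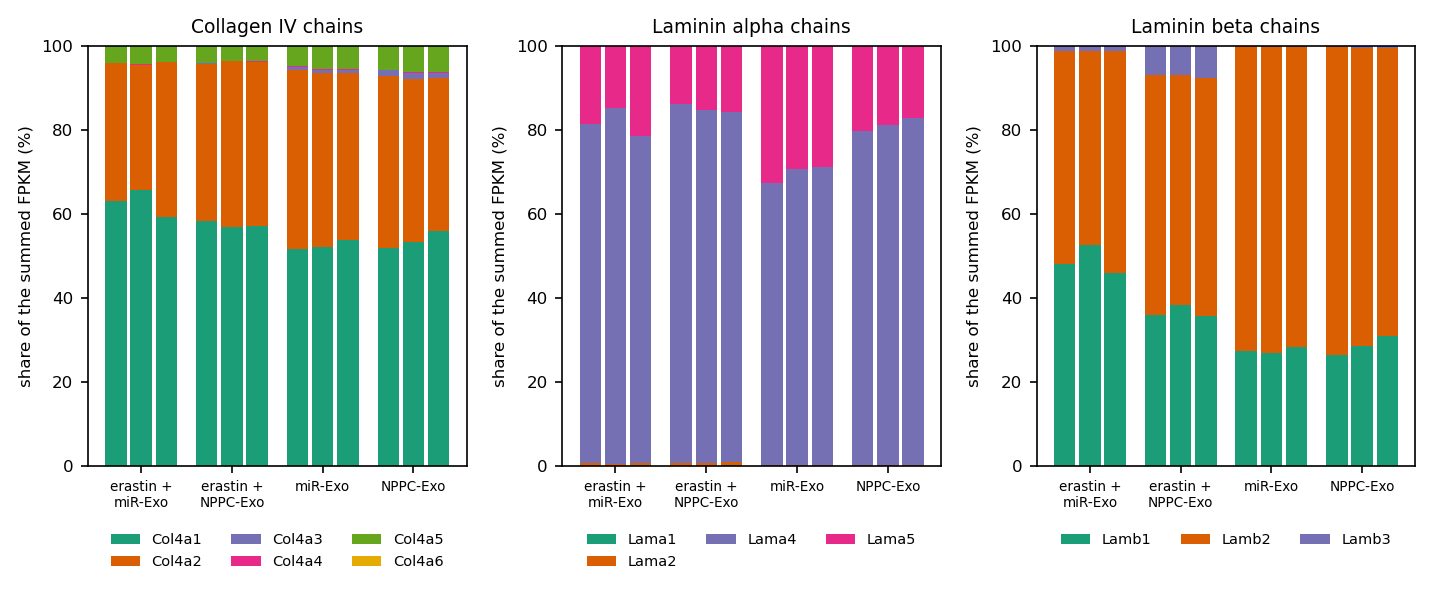
Share of the summed FPKM (y axis, percent) held by each collagen IV, laminin alpha and laminin beta chain, 1 bar per library in groups of 3. Col4a1 and Col4a2 fill most of each collagen IV bar, and the Lamb2 share is smaller in the erastin libraries, at 46.1% to 57.2% against 68.5% to 73.3% without erastin.

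Laminins are cross-shaped trimers of an alpha, a beta and a gamma chain. Lama4 and Lama5 are alpha chains found in blood vessel walls, among other sites. They made up nearly all transcripts of the alpha chains with a row, which leave out Lama3. Lama4 changed by -0.74 ± 0.05 under NPPC-Exo and by -0.47 ± 0.05 under miR-Exo, and both falls passed the test. Lama5 had 79.4, 94.8 and 97.2 CPM with erastin + NPPC-Exo, against 228, 197 and 173 CPM with NPPC-Exo. With erastin + miR-Exo it had 132, 93.4 and 143 CPM, against 375, 292 and 314 CPM with miR-Exo. The erastin libraries lay below the others in both cases, with changes of -1.14 ± 0.15 (adjusted p 3.7e-05) and -1.41 ± 0.15 (adjusted p 4.78e-06). Lama2, the alpha chain of muscle, was rare at 0.370 ± 0.0700 FPKM with erastin + NPPC-Exo and 0.0967 ± 0.0252 FPKM with NPPC-Exo, and it rose by 1.63 ± 0.29 there and by 1.35 ± 0.29 under miR-Exo. Lama1, an alpha chain of early embryos, had counts of 0, 0 and 23 with erastin + NPPC-Exo, 0, 13 and 17 with erastin + miR-Exo, 0, 0 and 0 with miR-Exo and 0, 7 and 0 with NPPC-Exo, too few for a fold change.

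Of the beta chains Lamb2 fell and Lamb3 rose under both kinds of exosome. Lamb2, a beta chain of muscle, nerve endings and the kidney filter, had 285, 282 and 305 CPM with erastin + NPPC-Exo, against 653, 568 and 534 CPM with NPPC-Exo. It had 227, 185 and 251 CPM with erastin + miR-Exo, against 626, 595 and 592 CPM with miR-Exo. All erastin libraries were below the others, with changes of -1.01 ± 0.10 (adjusted p 1.67e-06) and -1.45 ± 0.10 (adjusted p 4.76e-08). Lamb3 is the beta chain of the laminin that anchors the epidermis. It had 24.3, 25.5 and 29.2 CPM with erastin + NPPC-Exo, against 2.16, 2.86 and 3.51 CPM with NPPC-Exo, and 3.77, 3.72 and 4.01 CPM with erastin + miR-Exo, against 1.10, 1.35 and 1.53 CPM with miR-Exo. Erastin + NPPC-Exo stood apart from all other groups, and the rises of 3.21 ± 0.17 (adjusted p 6.12e-09) and 1.53 ± 0.18 (adjusted p 8.93e-06) were both without overlap. Of the 6 epithelial and keratinocyte markers, whose sums stand above, 1 had enough counts to be tested, and it was not called in either erastin comparison.

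The chains common to most laminins shifted little. Lamb1 changed by -0.31 ± 0.05 under NPPC-Exo (adjusted p 0.000206) and by -0.10 ± 0.05 under miR-Exo (adjusted p 0.123), and by -0.03 and 0.21 with library totals alone, so its direction under miR-Exo turns with the scaling. Lamc1, the gamma chain of most laminins, changed by -0.40 ± 0.05 (adjusted p 2.44e-05) and -0.14 ± 0.05 (adjusted p 0.0401), and by -0.11 and 0.17 with library totals alone, where the second is turned round as well. The call of Lamc1 under miR-Exo was lost without miR-Exo replicate 1 or 3, erastin + miR-Exo replicate 3 or NPPC-Exo replicate 2, with adjusted p from 0.0523 to 0.152. Per level of Lamb1, Lamb2 had 1.06, 0.876 and 1.15 with erastin + miR-Exo and 1.6, 1.43 and 1.59 with erastin + NPPC-Exo in FPKM, against 2.67, 2.73 and 2.52 with miR-Exo and 2.79, 2.5 and 2.22 with NPPC-Exo. Lamc3, a rarer gamma chain, had 12 counts in all.

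**Figure D3:**
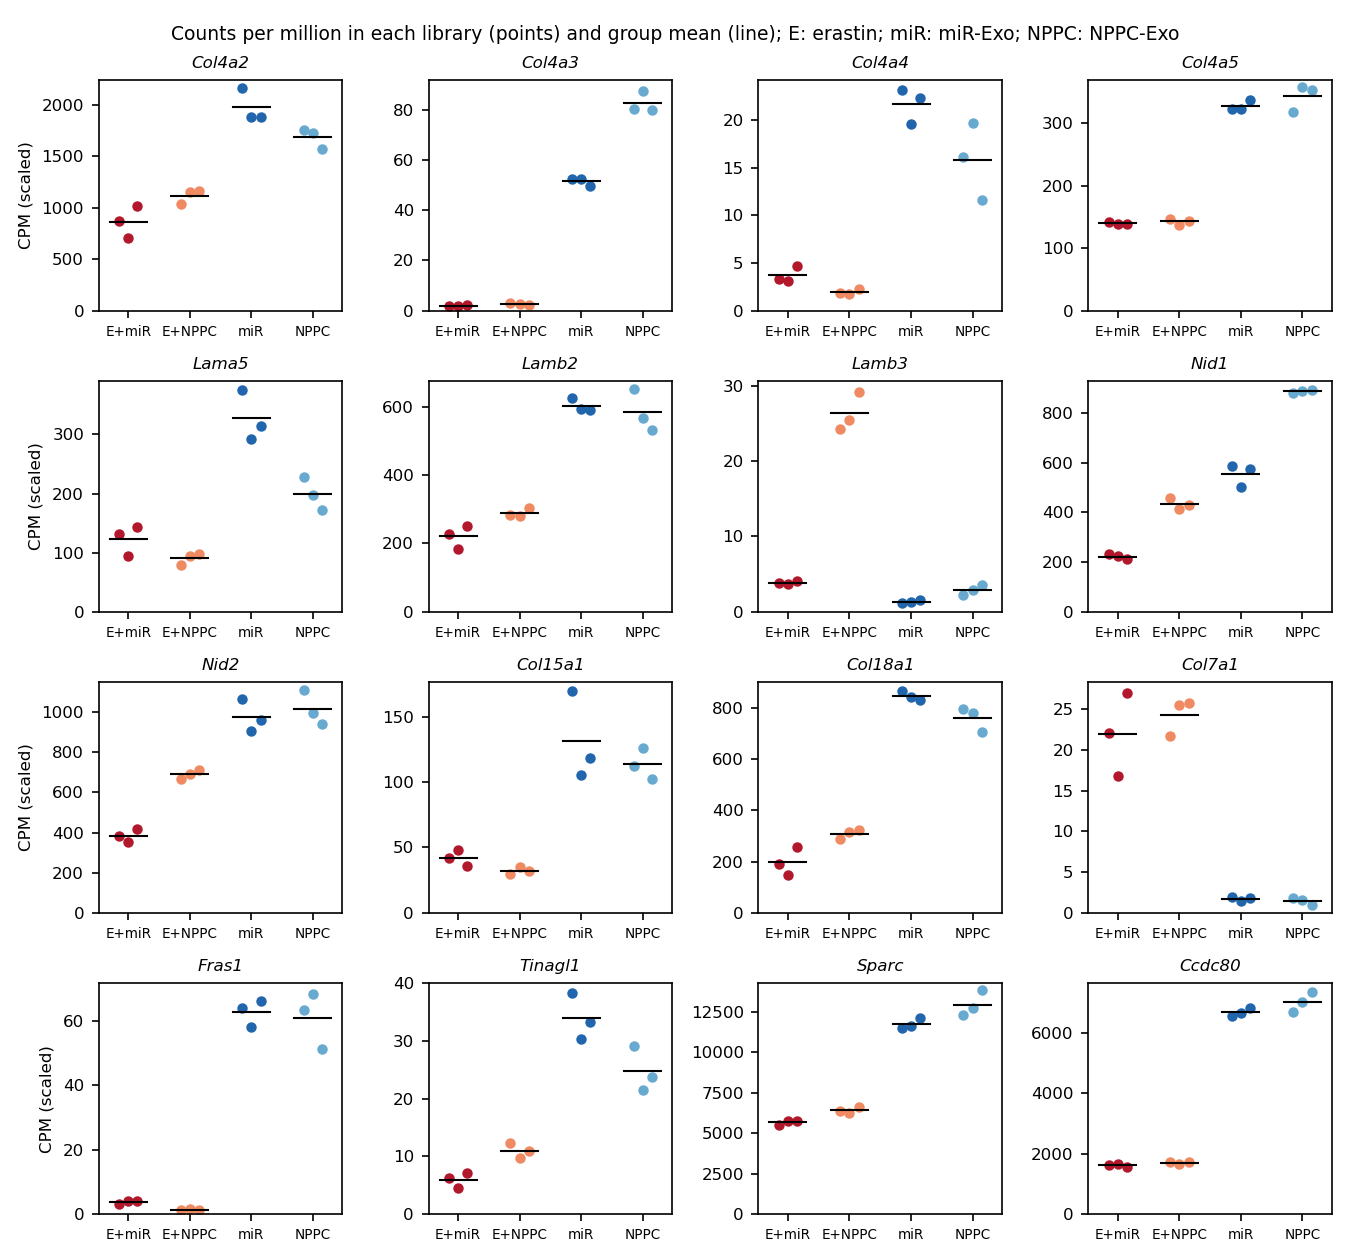
CPM (y axis, from 0) of the 16 genes with a called change of at least 2-fold in some comparison and at least 1 FPKM, 1 point per library and a line for the group mean, with erastin groups at the left of each panel. Lamb3 and Col7a1 are higher in the erastin groups, while the other 14 are lower.

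Of the 5 linkers of the sheet 4 fell under NPPC-Exo and all 5 under miR-Exo, where the call of Agrn depended on the scaling. Of all genes 22.1% and 24.4% fell in these comparisons. Nid1 and Nid2 encode nidogens, which bind laminin and collagen IV at once. Nid1 had 456, 415 and 429 CPM with erastin + NPPC-Exo, against 883, 887 and 894 CPM with NPPC-Exo, a change of -1.03 ± 0.06 (adjusted p 1.23e-08). It had 231, 224 and 211 CPM with erastin + miR-Exo, against 585, 503 and 573 CPM with miR-Exo, a change of -1.32 ± 0.06 (adjusted p 1.07e-09). The 4 groups did not overlap in any pair for Nid1. Nid2 had 665, 693 and 712 CPM with erastin + NPPC-Exo, against 1111, 994 and 939.9 CPM with NPPC-Exo, and 384, 351 and 419 CPM with erastin + miR-Exo, against 1065, 906 and 962 CPM with miR-Exo. Its changes were -0.56 ± 0.08 (adjusted p 5.34e-05) and -1.35 ± 0.08 (adjusted p 1.18e-08), and the erastin libraries lay below the others in both cases.

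Col18a1 and Col15a1, both collagens that carry sugar chains, fell as well. Col18a1, the source of endostatin, had 288, 316 and 325 CPM with erastin + NPPC-Exo, against 796, 781 and 705 CPM with NPPC-Exo. It had 191, 146 and 257 CPM with erastin + miR-Exo, against 865, 845 and 830.1 CPM with miR-Exo. The erastin libraries were below the others without overlap, with changes of -1.30 ± 0.14 (adjusted p 7.17e-06) and -2.10 ± 0.15 (adjusted p 7.61e-08). Col15a1 had 30.0, 34.7 and 31.7 CPM with erastin + NPPC-Exo, against 113, 126 and 102 CPM with NPPC-Exo. It had 42.2, 48.0 and 36.0 CPM with erastin + miR-Exo, against 169, 105 and 118 CPM with miR-Exo. These falls of -1.82 ± 0.16 (adjusted p 6.54e-07) and -1.64 ± 0.16 (adjusted p 1.53e-06) were again without overlap. Agrn encodes agrin, the heparan sulphate proteoglycan that gathers receptors at the nerve-muscle junction. Its changes were -0.05 ± 0.08 (adjusted p 0.685) and -0.32 ± 0.08 (adjusted p 0.00618), and under NPPC-Exo it stood at 0.23 (adjusted p 0.0326) with library totals alone, so no direction is given for it there. Its call under miR-Exo was lost with library totals alone (-0.02, adjusted p 0.876) and in the limma fits on log2 FPKM (adjusted p 0.828 to 0.898).

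The genes that tie the sheet to the tissue beneath it included the largest rise under each kind of exosome and the largest fall under NPPC-Exo. Fras1 and Frem1 encode subunits of the Fraser complex, which holds embryonic epidermis to the dermis. Fras1 had 1.30, 1.68 and 1.11 CPM with erastin + NPPC-Exo, against 63.3, 68.3 and 51.4 CPM with NPPC-Exo, and 3.23, 4.05 and 3.87 CPM with erastin + miR-Exo, against 64.1, 58.1 and 66.1 CPM with miR-Exo. The highest erastin library stood at 4.05 CPM and the lowest one without erastin at 51.4 CPM. The changes were -5.48 ± 0.16 (adjusted p 2.05e-11) and -4.08 ± 0.14 (adjusted p 1.02e-10). Frem1, at 0.177 FPKM with NPPC-Exo, changed by -1.26 ± 0.33 (adjusted p 0.00766) and -1.10 ± 0.33 (adjusted p 0.014). The second call was lost without miR-Exo replicate 2 (adjusted p 0.0636) or erastin + miR-Exo replicate 1 (adjusted p 0.0504). It was also lost with library totals alone (-0.80, adjusted p 0.0568) and in the unfiltered limma fit on log2(FPKM + 1) (adjusted p 0.067). Frem2, the third subunit, had counts of 8, 0 and 0 with erastin + NPPC-Exo, 16, 10 and 12 with erastin + miR-Exo, 0, 8 and 4 with miR-Exo and 0, 0 and 0 with NPPC-Exo.

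Col7a1 encodes the collagen of the anchoring fibrils under the epidermis. It had 21.7, 25.5 and 25.7 CPM with erastin + NPPC-Exo, against 1.82, 1.52 and 1.01 CPM with NPPC-Exo. It had 22.1, 16.7 and 27.0 CPM with erastin + miR-Exo, against 1.93, 1.42 and 1.83 CPM with miR-Exo. The rises of 4.06 ± 0.22 (adjusted p 7.67e-09) and 3.67 ± 0.22 (adjusted p 1.4e-08) were without overlap, and the difference between them was not called (-0.40 ± 0.30, adjusted p 0.423). The 250 bases before the starts of the 2 genes that rose most, Col7a1 and Lamb3, and of Fras1, which fell most under NPPC-Exo, are printed from RefSeq (GRCr8) in the same way, with GGGCGG and CCAAT matches in capitals.
Col7a1, chr8:118483114-118483363, plus strand: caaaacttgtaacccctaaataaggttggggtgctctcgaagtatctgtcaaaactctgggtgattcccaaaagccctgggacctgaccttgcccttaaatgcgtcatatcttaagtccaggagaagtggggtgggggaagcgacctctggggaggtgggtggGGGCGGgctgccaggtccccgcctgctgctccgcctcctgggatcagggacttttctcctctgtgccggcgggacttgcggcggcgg
Lamb3, chr13:107362303-107362552, plus strand: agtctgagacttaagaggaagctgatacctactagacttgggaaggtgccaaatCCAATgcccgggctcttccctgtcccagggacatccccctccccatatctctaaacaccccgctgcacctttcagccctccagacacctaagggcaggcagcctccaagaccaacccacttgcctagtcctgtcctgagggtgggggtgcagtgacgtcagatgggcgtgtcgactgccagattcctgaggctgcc
Fras1, chr14:13504665-13504914, minus strand: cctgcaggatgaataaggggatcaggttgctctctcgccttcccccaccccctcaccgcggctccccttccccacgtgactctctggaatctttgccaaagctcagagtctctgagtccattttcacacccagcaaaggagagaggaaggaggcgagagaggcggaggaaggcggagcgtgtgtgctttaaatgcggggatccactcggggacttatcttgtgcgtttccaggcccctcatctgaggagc
None of the 3 held the TATA box or the AP-1 motif on either strand, and Fras1 held none of the 4 motifs. Of all promoter stretches of this length 34.0% held CCAAT, 12.9% the TATA box and 6.34% the AP-1 motif, in all cases on either strand. The absence of a match says only that these letters are not in this window.

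Among the proteins that attach to the sheet, the abundant Sparc and Ccdc80 fell under both kinds of exosome. Sparc had 6384, 6255 and 6611 CPM with erastin + NPPC-Exo, against 12304, 12738 and 13860.4 CPM with NPPC-Exo, and 5496, 5773 and 5757 CPM with erastin + miR-Exo, against 11525, 11659 and 12163 CPM with miR-Exo. Its changes were -1.01 ± 0.04 (adjusted p 9.81e-10) and -1.05 ± 0.04 (adjusted p 5.24e-10). Ccdc80 had 1734, 1645 and 1710.1 CPM with erastin + NPPC-Exo, against 6699, 7012 and 7343 CPM with NPPC-Exo, and 1617, 1662 and 1547 CPM with erastin + miR-Exo, against 6555, 6641 and 6809.9 CPM with miR-Exo. Its changes were -2.05 ± 0.04 (adjusted p 1.91e-12) and -2.05 ± 0.04 (adjusted p 1.03e-12), with no overlap for either gene. The difference between the effects was not called for Sparc (-0.04 ± 0.06, adjusted p 0.751) or Ccdc80 (adjusted p 0.988).

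Tinagl1, a matrix protein that binds integrins, fell more under miR-Exo. It had 12.3, 9.65 and 11.0 CPM with erastin + NPPC-Exo, against 29.2, 21.6 and 23.7 CPM with NPPC-Exo, a change of -1.18 ± 0.16 (adjusted p 4.76e-05). It had 6.19, 4.54 and 7.10 CPM with erastin + miR-Exo, against 38.3, 30.4 and 33.4 CPM with miR-Exo, a change of -2.52 ± 0.17 (adjusted p 4.65e-08). The erastin libraries lay below the others in both. Npnt, the integrin ligand nephronectin, fell under both kinds of exosome, with -0.73 ± 0.11 and -0.82 ± 0.11. Fbln1, which encodes fibulin of elastic fibres and basement membranes, rose by 0.49 ± 0.08 under NPPC-Exo and by 0.23 ± 0.08 under miR-Exo (adjusted p 0.0223), where the call was lost without either of miR-Exo replicates 2 and 3 or any 1 erastin + miR-Exo library (adjusted p 0.0555 to 0.0897). Smoc2, a calcium-binding relative of Sparc, rose by 0.50 ± 0.06 under NPPC-Exo (adjusted p 1.96e-05) and had -0.15 ± 0.06 under miR-Exo (adjusted p 0.0646), where the sign turned to 0.16 with library totals alone. Its relative Smoc1 had -0.11 ± 0.06 under NPPC-Exo (adjusted p 0.2), turned to 0.18 with library totals alone, and -0.39 ± 0.06 under miR-Exo (adjusted p 0.000187), a call lost with that scaling. Efemp1, a fibulin relative, had counts of 0, 26 and 0 with erastin + NPPC-Exo and 13, 7 and 0 with erastin + miR-Exo, and 0 in all 6 libraries without erastin, where up to 0.0472 to 0.0565 CPM would still be possible from 3 counts (counting error only).

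Dag1 encodes dystroglycan, the receptor of laminin and agrin. It had 0.05 ± 0.04 under NPPC-Exo (adjusted p 0.417) and rose by 0.45 ± 0.04 under miR-Exo (adjusted p 2.2e-06). With library totals alone it rose in both, by 0.33 under NPPC-Exo (adjusted p 1.42e-05).

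Other genes of the pathway were read from 3 lists of receptors, of collagen processing and dystroglycan glycosylation, and of matrix turnover. Of 25 receptor genes 15 fell and 4 rose with erastin under NPPC-Exo, and 14 fell and 4 rose under miR-Exo, with medians of -0.316 and -0.635. Of all genes 22.1% fell and 21.5% rose under NPPC-Exo, and 24.4% fell and 24.7% rose under miR-Exo. Itga8, whose product pairs with the Itgb1 product as the receptor of nephronectin, stood at 132 ± 7.60 CPM with erastin + NPPC-Exo and 432 ± 7.18 CPM with NPPC-Exo, a change of -1.71 ± 0.05 (adjusted p 2.05e-11), and under miR-Exo it changed by -1.91 ± 0.05. Sdc2, a heparan sulphate proteoglycan of the cell surface, changed by -1.78 ± 0.05 under NPPC-Exo and -2.42 ± 0.05 under miR-Exo. Dmd, which links dystroglycan to actin, changed by -2.97 ± 0.12 and -2.67 ± 0.12. Itga2, an integrin chain that binds collagen and laminin, rose by 4.15 ± 0.22 under NPPC-Exo and 4.64 ± 0.21 under miR-Exo. Itga3 and Itgb4 encode chains of integrins that bind the epidermal laminin of Lamb3. They were chosen after their values were seen, from a list that mostly fell, so they are examples only. Itga3 rose by 0.90 ± 0.07 under NPPC-Exo and 0.60 ± 0.07 under miR-Exo. Itgb4 rose by 1.17 ± 0.29 under NPPC-Exo (adjusted p 0.00476) and had 0.29 ± 0.28 under miR-Exo (adjusted p 0.433).

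Of 23 processing genes 16 fell and 3 rose under NPPC-Exo, and 14 fell and 3 rose under miR-Exo, with medians of -0.406 and -0.38, beside the same shares of all genes (22.1% and 21.5%, then 24.4% and 24.7%). The enzymes that hydroxylate collagen lysines and prolines were among those that fell, with Plod1 at -1.06 ± 0.05, Plod2 at -1.02 ± 0.05 and P3h1 at -0.84 ± 0.05 under NPPC-Exo. The collagen chaperone gene Serpinh1 stood at 1394 ± 154 CPM with erastin + miR-Exo and 3845 ± 262 CPM with miR-Exo, a change of -1.46 ± 0.10 (adjusted p 4.12e-08). Of 21 turnover genes 10 rose and 6 fell under NPPC-Exo, and 11 rose and 7 fell under miR-Exo, with medians of 0.0636 and 0.351, beside 21.5% of all genes that rose and 22.1% that fell under NPPC-Exo, and 24.7% and 24.4% under miR-Exo. Mmp9, which cuts collagen IV, stood at 104 ± 10.2 CPM with erastin + NPPC-Exo and 1.69 ± 0.195 CPM with NPPC-Exo. It stood at 78.5 ± 9.37 CPM with erastin + miR-Exo and 1.51 ± 0.587 CPM with miR-Exo. Timp3, an inhibitor of such proteases, changed by -2.87 ± 0.13 and -3.69 ± 0.14.

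Between the kinds of exosome without erastin, 22.6% of the 31 tested genes of the list differed. With miR-Exo against NPPC-Exo 3 genes were higher and 4 lower, where 10.7% of all tested genes differed, 4.15% higher and 6.52% lower. At least 2-fold differences numbered 0 higher and 1 lower, against 0.939% and 0.422% of all genes. The list had a median log2 fold change of 0.0464, and all genes of 0. Nid1, Col4a3 and Lamb3 had the largest differences downward, from the libraries given above. Nid1 had a log2 fold change of -0.68 ± 0.06 (adjusted p 1.61e-05), Col4a3 of -0.68 ± 0.08 (adjusted p 0.000197) and Lamb3 of -1.09 ± 0.18 (adjusted p 0.00193). Lamb3 was rare here, at 0.287 FPKM with miR-Exo and 0.577 FPKM with NPPC-Exo. Its call was lost in the limma fit on log2(FPKM + 1), with adjusted p of 0.0619 with a filter and 0.0822 without. The libraries of Nid1, Col4a3 and Lamb3 did not overlap between miR-Exo and NPPC-Exo, and the share of all genes without overlap was not counted. Lama5 was higher by 0.71 ± 0.15 (adjusted p 0.00892), again with no overlap, and its share of alpha chain FPKM was 30.4% ± 2.2 with miR-Exo and 18.9% ± 1.55 with NPPC-Exo (SD, n = 3 each). Npnt at 0.38 ± 0.11 (adjusted p 0.0377), Smoc2 at 0.24 ± 0.06 (adjusted p 0.0253) and Lama4 at -0.19 ± 0.05 (adjusted p 0.0435) were called, but these calls turned on single libraries. Npnt was called in 7 of the 12 fits that left out 1 library (lost without NPPC-Exo replicate 1 or 3 or any miR-Exo library, adjusted p 0.0573 to 0.108). Smoc2 was called in 8 of 12 (lost without NPPC-Exo replicate 1 or 2 or miR-Exo replicate 2 or 3, adjusted p 0.0614 to 0.097). Lama4 was called in 2 of 12, without erastin + miR-Exo replicate 1 or 3, and its adjusted p otherwise ran from 0.0511 to 0.158. Without miR-Exo replicate 2 or without replicate 3, 1 gene was higher in place of 3. Of the other lists 3 receptor genes were higher and 3 lower, 2 processing genes were higher and 7 lower, and 2 turnover genes were higher and 5 lower.

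With erastin, the kinds of exosome differed at more of them. With erastin + miR-Exo against erastin + NPPC-Exo 6 genes were higher and 11 lower, where 31.3% of all genes differed, 15.6% higher and 15.8% lower, and the list had a median of -0.0955 beside 0.011 over all genes. With library totals alone 9 were higher and 9 lower, as Lama4, Col15a1 and Npnt were added and Col4a2 and Sparc lost, and the median of the list was 0.008, beside 0.115 over all genes. At least 2-fold differences numbered 1 higher and 1 lower, against 2.37% and 2.63% of all genes. Of the nucleus pulposus markers 4 of 7 tested were lower and 1 higher, and of the pericyte and smooth muscle markers 3 of 8 were lower. Of the other lists 2 macrophage markers were higher, 2 endothelial and 2 skeletal muscle markers lower, 1 Schwann cell marker higher and 1 lower, and 1 epithelial and keratinocyte marker higher. Their part in the result was not tested. The downward log2 fold changes were led by Lamb3 at -2.78 ± 0.17 (adjusted p 2.04e-07), Nid1 at -0.97 ± 0.06 (adjusted p 2.28e-07), Tinagl1 at -0.88 ± 0.17 (adjusted p 0.00134) and Nid2 at -0.84 ± 0.08 (adjusted p 5.53e-06). Col18a1 had -0.65 ± 0.14 (adjusted p 0.00414). Fras1 was higher by 1.44 ± 0.16 (adjusted p 2.48e-05) and Dag1 by 0.51 ± 0.04 (adjusted p 3.29e-06). None of these 7 genes, named for their called differences, overlapped between the groups. How many of all genes were free of overlap was not counted. The neighbours Col4a3 and Col4a4 went opposite ways, with -0.56 ± 0.10 (adjusted p 0.00129) and 0.94 ± 0.21 (adjusted p 0.00434). Both were rare here, at 0.293 and 0.363 FPKM with erastin + miR-Exo. Both calls were lost in the limma fit on log2(FPKM + 1), with adjusted p of 0.185 and 0.146. Smoc1 and Smoc2 were both lower, at -0.38 ± 0.06 and -0.40 ± 0.06. Lamb2 had -0.40 ± 0.10 (adjusted p 0.0071). Lamc1 at 0.23 ± 0.05 (adjusted p 0.00363) and Sparc at -0.18 ± 0.04 (adjusted p 0.00845) were called in all 12 fits without 1 library. Sparc lost its call with library totals alone (adjusted p 0.212). The calls of Col4a2, Lama5 and Lamb1, at -0.37 ± 0.11, 0.44 ± 0.15 and 0.18 ± 0.05, turned on single libraries. Col4a2 lost the call without erastin + NPPC-Exo replicate 3 (adjusted p 0.0549). Lamb1 lost it without erastin + NPPC-Exo replicate 1 or 3 or any erastin + miR-Exo library (adjusted p 0.0503 to 0.111). Lama5, whose libraries overlapped, was called in 5 of 12 fits and lost without NPPC-Exo replicate 2, miR-Exo replicate 3, any erastin + NPPC-Exo library or erastin + miR-Exo replicate 1 or 3 (adjusted p 0.0526 to 0.195). Of the other lists 6 receptor genes were higher and 6 lower, 8 processing genes were higher and 7 lower, and 8 turnover genes were higher and 3 lower. This comparison and that of erastin under each exosome share libraries, so their values are given side by side only.

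**Figure D4:**
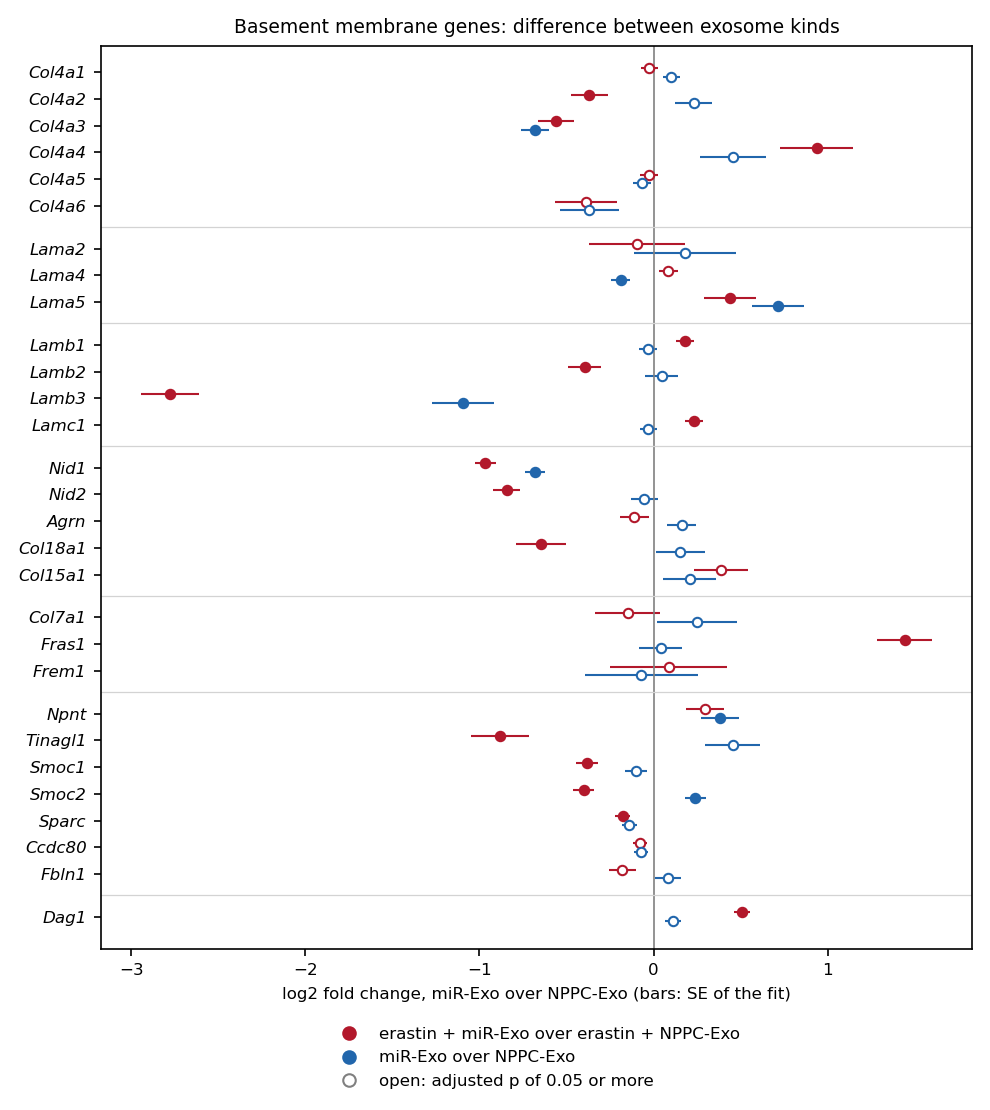
Log2 fold change of miR-Exo over NPPC-Exo (x axis) for 29 basement membrane genes, with erastin (red) and without (blue), with bars for the SE of the fit and open points for an adjusted p of 0.05 or more. Lamb3 lies farthest left in both comparisons, and Fras1 lies to the right with erastin and at 0.04 without it.

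Whether erastin acted differently under the kinds of exosome was tested as an interaction, the erastin effect under miR-Exo minus that under NPPC-Exo. Of the 31 genes 4 had a positive and 8 a negative difference, where 12.8% of all genes differed, 5.81% and 7.01% in these directions. Differences of at least 1 on the log2 scale numbered 1 positive and 2 negative, against 0.971% and 2.58% of all genes. For 6 of the 12 the call stood without any 1 of the 12 libraries. Among these, Lamb3 rose less under miR-Exo (-1.68 ± 0.24, adjusted p 0.0012), and Tinagl1 (-1.34 ± 0.23, adjusted p 0.00315) and Nid2 (-0.79 ± 0.11, adjusted p 0.00106) fell more. Fras1 fell less (1.40 ± 0.20, adjusted p 0.00129), although on the log2(FPKM + 1) scale, which shrinks low values, its difference was 0.16 and not called (adjusted p 0.423). Smoc2 had a difference of -0.64 ± 0.09 (adjusted p 0.000937) and Dag1 of 0.40 ± 0.06 (adjusted p 0.00194). The other 6 calls turned on single libraries. Col4a2 lost the call without NPPC-Exo replicate 3 or miR-Exo replicate 1 (adjusted p 0.0519 and 0.0551). Col18a1 lost it without replicate 3 of NPPC-Exo or of erastin + NPPC-Exo or replicate 1 of erastin + miR-Exo (adjusted p 0.0518 to 0.0537). Nid1 and Lamc1 were called in 5 of 12 fits, with adjusted p of up to 0.0993 and 0.119. Lama4 was called in 3, without NPPC-Exo replicate 3, miR-Exo replicate 3 or erastin + miR-Exo replicate 3, and otherwise had up to 0.139. Lamb2 was called in 2, without NPPC-Exo replicate 1 or erastin + miR-Exo replicate 3, and otherwise had up to 0.108.

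**Figure D5:**
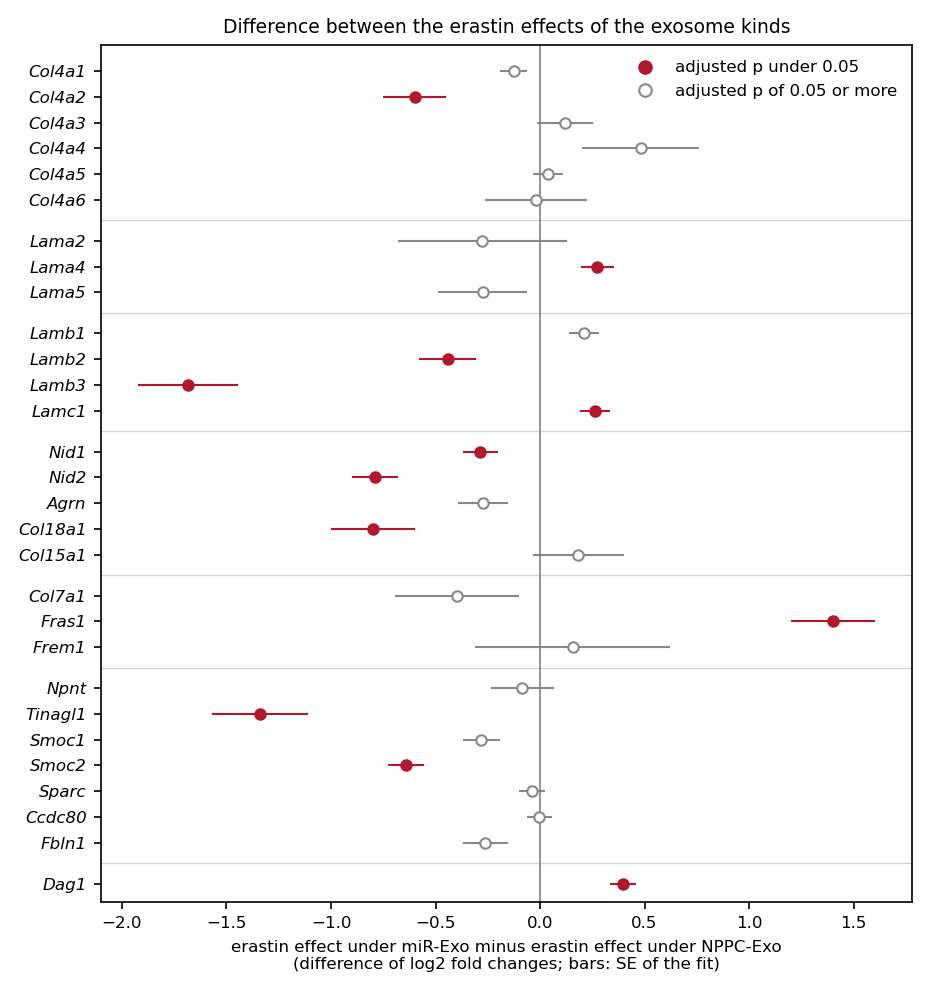
Erastin effect under miR-Exo minus erastin effect under NPPC-Exo (x axis, difference of log2 fold changes) for 29 basement membrane genes, with bars for the SE of the fit and red points for an adjusted p under 0.05. Lamb3 and Tinagl1 lie farthest to the left at -1.68 and -1.34, and Fras1 farthest to the right at 1.40.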

How the data were processed

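The authors deposited 1 table with raw counts and FPKM per gene for the 12 libraries, FPKM being counts scaled by gene length and library size and rounded to 2 decimals. Per the labels' protocols, total RNA was taken with TRIzol and the libraries were strand-marked with dUTP. Per the submitters' processing notes, StringTie and the mRatBN7.2 build were used, and the sources used here do not give the aligner, counter or annotation. Coordinates in the table reach 282702424 on chromosome 1, past the end of that chromosome in mRatBN7.2. They are thus not of the stated build, and none are printed. Sequences and their coordinates come from RefSeq tables of build GRCr8, which held a promoter for 30 of the 35 genes. All columns were matched to samples by their descriptions.

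Counts were filtered with filterByExpr, scaled by TMM (trimmed mean of M values, factors 0.877 to 1.15) and tested with edgeR 4.0.16 (R 4.3.3) by the quasi-likelihood test with 1 mean per group and the spread of each gene estimated over all 12 libraries. P-values were adjusted by Benjamini and Hochberg over all 15650 genes of a comparison, and a gene is said to rise, fall or change where this p was under 0.05. CPM are counts relative to the TMM-scaled library total, and ± after a log2 fold change is its SE. The fit was tested on simulated counts with known changes. Values per library are given for the 16 genes with a mean of at least 1 FPKM in some group and a called change of at least 1 on the log2 scale. Other genes of the pathway are named by their smallest adjusted p, apart from Itga3 and Itgb4. The members and lists were chosen with earlier results of these data known. Alternatives were DESeq2 1.42.0, limma 3.58.1 on log2 FPKM, other scalings and filters, halved counts (57.3% of counts from 1 to 20 were even), a replicate block and leaving out each library. Counts of replicate libraries differed by more than sampling noise.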

Additional observations from a re-analysis of the deposited data

Results flagged for a closer look

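The erastin effect differed between the kinds of exosome for 12 basement membrane genes, by the interaction test of edgeR (adjusted p under 0.05, 12.8% of all genes tested). The values are the log2 fold change with erastin under miR-Exo minus that under NPPC-Exo. Negative differences were found for Lamb3 (-1.68), Tinagl1 (-1.34), Col18a1 (-0.80), Nid2 (-0.79), Smoc2 (-0.64), Col4a2 (-0.60), Lamb2 (-0.44) and Nid1 (-0.29). Positive ones were found for Fras1 (1.40), Dag1 (0.40), Lama4 (0.27) and Lamc1 (0.26). The calls of Lamb3, Tinagl1, Nid2, Smoc2, Fras1 and Dag1 stood in all 12 fits that left out 1 library. Of those fits, Lamb2 was called in 2, Lama4 in 3, Lamc1 and Nid1 in 5, Col18a1 in 9 and Col4a2 in 10.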

How the results depend on the processing

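Counts of members called with erastin were 21 lower and 5 higher under NPPC-Exo in every fit without 1 library, and 21 to 23 lower and 4 to 5 higher under miR-Exo. For miR-Exo against NPPC-Exo they ran from 1 to 4 higher and 3 to 4 lower without erastin, and from 4 to 7 higher and 10 to 11 lower with it. For the interaction they ran from 2 to 4 positive and 4 to 8 negative. The lowest counts came without miR-Exo replicate 2 or 3 for the 1 higher gene without erastin. For the interaction, 4 negative genes were left without NPPC-Exo replicate 3, 5 without miR-Exo replicate 1 or erastin + NPPC-Exo replicate 3, and 2 positive ones without NPPC-Exo replicate 2, miR-Exo replicate 2, any erastin + NPPC-Exo library, or erastin + miR-Exo replicate 1 or 2.

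With library totals alone 8 genes were higher with erastin under each kind of exosome in place of 5, and 6 were higher with miR-Exo without erastin in place of 3. Limma on log2(FPKM + 1) and on log2(FPKM + 0.1) gave 6 there as well, and log2(FPKM + 1) gave 2 lower in place of 4, with and without a filter. The unfiltered one gave 5 negative interactions in place of 8. FPKM are scaled by library totals. Over all genes, higher and lower calls with erastin under NPPC-Exo were 3362 and 3454, and 6405 and 1832 with library totals alone. Under miR-Exo they were 3873 and 3814, and 6963 and 2156. For miR-Exo against NPPC-Exo they were 649 and 1020 without erastin, and 1264 and 576 with library totals alone, and 2439 and 2467 with erastin, and 3789 and 1737 with library totals alone, where the members had 9 higher and 9 lower in place of 6 and 11.

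Directions turned for 5 genes. With library totals alone Agrn (0.234) and Smoc1 (0.177) were higher with erastin under NPPC-Exo, and Lamb1 (0.207), Lamc1 (0.170) and Smoc2 (0.158) under miR-Exo. Smoc1 had 0.170 on log2(FPKM + 1), with and without a filter, and 0.171 on log2(FPKM + 0.1). Lamb1 had 0.195 and 0.200 and Lamc1 0.163 and 0.164 on these scales. Replicate numbers did not pair the libraries, with correlations of same-numbered deviations from -0.17 to 0.28 and 4 of 12 libraries closest to their own number. A replicate block gave 5 higher genes in place of 6 for miR-Exo against NPPC-Exo with erastin, where Lama5 lost its call (adjusted p 0.0509). The other counts of members were equal, although calls changed. Under miR-Exo, with erastin against without, Lamc1 lost its call (0.0546) and Smoc2 gained one (0.0275). For miR-Exo against NPPC-Exo without erastin, Lama4 (0.0521) and Npnt (0.0608) lost theirs, and Sparc (0.0297) and Tinagl1 (0.0199) gained one. Halved counts gave 9 negative interactions in place of 8, and DESeq2 9. With 3 libraries a group, small changes may have gone uncalled.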
